A study of Mus musculus with 12 samples.

Results

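Polycomb repressive complex 2 (PRC2) was examined here at the level of its messenger RNAs, through 9 genes picked by name: Ezh2 and Ezh1, Eed, Suz12, Rbbp4, Rbbp7, Jarid2, Mtf2, and Phf19. All 9 names were found among the 12591 genes of the deposited expression table by Ensembl identifier. The RNA came from mouse embryonic fibroblasts (MEFs) of C57 PER2::LUC animals, in which luciferase is fused to the circadian clock protein PER2. The cells, an immortalized line, were grown to confluence and then kept for 24 h in new medium, with 3 dishes in each of 4 groups. The groups were control (CTL), 10 μM deazaneplanocin A (DZ), 1 mM adenine, and 1 mM S-adenosylmethionine (SAM), and the medium of every group, CTL included, contained 3.3 mM HCl. Because the dishes came from a single line, the p-values given here measure only the spread between dishes.

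PRC2 places methyl groups on lysine 27 of histone H3 (H3K27), a mark of repressed genes, and takes each methyl group from SAM. EZH2 and its relative EZH1 are alternative catalytic subunits, EED and SUZ12 complete the core, and RBBP4 or RBBP7 binds histones within it. PHF1, MTF2, and PHF19 are the alternative Polycomb-like subunits of one form of the complex, and JARID2 and AEBP2 belong to another. DZ inhibits the hydrolase AHCY, which removes S-adenosylhomocysteine, and is known to deplete the EZH2 protein. Proteins and histone marks were not measured in these data, so that all values below are of RNA.

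The libraries held between 45649534 and 56789090 reads on the listed genes (median 49943100), and no member had fewer than 149 reads in any library. The deposited values are on a log2 scale of CPM, which sets the reads of each gene against the library size as the authors normalized it, and the authors had dropped genes under 1 CPM in any library, so that no member entered through a single group. SAM replicate 3 stood apart from the other SAM dishes, its reads differing from theirs by a chi-square per degree of freedom of 15.7 and 19.1, compared with 4.76 to 7.07 for all other pairs of the same group. Of the fibroblast markers, 8 of 10 were in the table, with a summed level of 21841 to 22281 CPM in CTL, whereas Dcn and Lum were not listed. Endothelial and epithelial markers were not listed, and single markers were listed for leukocytes (Cd68, 3.03 to 4 CPM in CTL) and pluripotent cells (Sox2, 17.2 to 18.1 CPM in CTL). Fewer cells that express a gene and less RNA per cell cannot be told apart in such bulk samples.

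Levels of different genes were compared per length, as CPM per kilobase of the canonical transcript. In CTL, Rbbp7 was highest at 115 ± 3.1 (SD, n = 3), followed by Rbbp4 at 47.9 ± 1.3, Eed at 25.6 ± 0.67, and Suz12 at 20.2 ± 0.59. Ezh2 stood at 15 ± 0.42 and Ezh1 at 10.3 ± 0.46. Mtf2 at 5.63 ± 0.43, Jarid2 at 1.75 ± 0.095, and Phf19 at 1.06 ± 0.24 were the lowest. None of these neighbors in the order overlapped between their CTL libraries, and the order was the same when the length of all annotated exons was used instead. Under SAM, Ezh2 reached 29.8 ± 0.51, above Eed at 27.2 ± 0.56 and Suz12 at 24.6 ± 1.1. With the length of all exons, however, Ezh2 at 12.6 stayed below Eed at 14.8 and Suz12 at 15.9, so that the place of Ezh2 among the core subunits under SAM depended on the length used. Phf19 moved from the lowest place in CTL to 6.28 ± 0.35 under SAM, above Jarid2 at 1.31 ± 0.10 and next to Ezh1 at 7.4 ± 0.32, whose libraries it did not overlap.

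**Figure D1:**
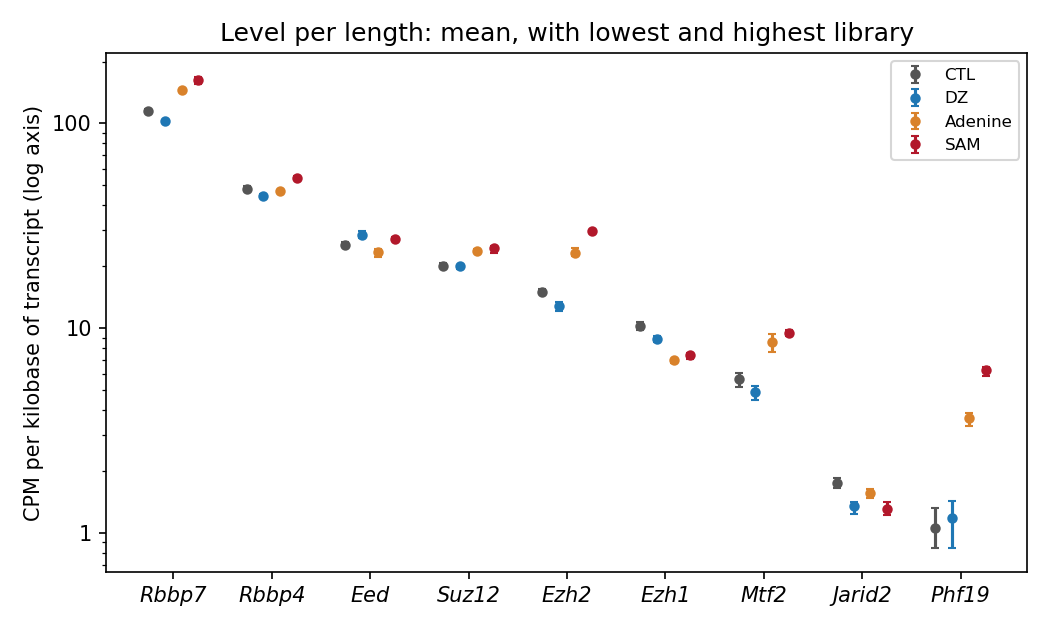
Level of each PRC2 gene in CPM per kilobase of its canonical transcript (log axis) in the 4 groups. Points are means of 3 libraries and bars reach from the lowest to the highest library. Rbbp7 lies highest in every group, and Phf19 climbs from 1.06 in CTL to 6.28 under SAM.

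Because several members moved in the same direction under adenine and SAM, their promoters were searched for the letters of an E2F-type site. E2F factors are known for switching on genes of DNA replication and cell division. The letters were TTTCCCGC, TTTCGCGC, TTTGCCGC, and TTTGGCGC, on both strands, and the windows, from RefSeq, reach from 250 bases before to 50 bases after an annotated start. All 9 members had a window, 11 in all, and the windows were located in GRCm39 by their exact match. A motif was found in 3 of the 11 windows (27.3%), those of Ezh2, Suz12, and Phf19. The share was 2.26% of all 32851 windows and 4.16% of the 11287 windows of genes in the table. Counted by gene, 3 of the 9 members (33.3%) held one, beside 5.04% of the 8821 genes of the table with a window. Among genes of a proliferation list, 7 of the 20 that had a window (35%) held one. The motif began at base 254 of the Ezh2 window, at base 32 of the Suz12 window, and at base 43 of the Phf19 window. The RefSeq start of Phf19 lies 1075 bases, and that of Ezh2 367 bases, inside the gene as annotated by GENCODE. Mtf2 and Rbbp7, whose RNA also rose under adenine and SAM, held none of these letters in their windows, nor did Eed, Jarid2, Rbbp4, and Ezh1. The 3 windows with a motif are shown with that of Ezh1, the alternative to Ezh2. Each is written 5′ to 3′ on the strand of its gene, with the motif in capitals. They are Ezh2 at chr6:47571915-47572214 (minus strand), Suz12 at chr11:79883682-79883981 (plus strand), Phf19 at chr2:34803939-34804238 (minus strand), and Ezh1 at chr11:101117240-101117539 (minus strand), all in GRCm39. A match of letters is a description and does not show that a factor was bound.
Ezh2: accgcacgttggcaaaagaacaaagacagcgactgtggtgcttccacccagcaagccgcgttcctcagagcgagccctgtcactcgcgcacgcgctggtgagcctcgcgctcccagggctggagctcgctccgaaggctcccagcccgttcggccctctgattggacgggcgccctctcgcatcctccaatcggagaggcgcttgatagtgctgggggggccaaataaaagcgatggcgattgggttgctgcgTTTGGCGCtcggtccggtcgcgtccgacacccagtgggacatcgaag
Suz12: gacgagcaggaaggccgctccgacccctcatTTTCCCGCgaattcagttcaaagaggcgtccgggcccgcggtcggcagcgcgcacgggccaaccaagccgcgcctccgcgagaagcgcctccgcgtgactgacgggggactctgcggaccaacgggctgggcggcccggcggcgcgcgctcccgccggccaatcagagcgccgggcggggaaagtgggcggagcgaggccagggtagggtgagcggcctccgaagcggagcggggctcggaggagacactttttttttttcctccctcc
Phf19: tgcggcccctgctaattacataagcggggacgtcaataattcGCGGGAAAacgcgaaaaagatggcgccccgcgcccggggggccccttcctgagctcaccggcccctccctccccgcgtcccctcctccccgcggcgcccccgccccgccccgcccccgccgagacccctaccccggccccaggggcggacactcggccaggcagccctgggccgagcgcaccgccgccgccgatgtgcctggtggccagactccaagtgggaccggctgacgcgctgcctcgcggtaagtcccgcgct
Ezh1: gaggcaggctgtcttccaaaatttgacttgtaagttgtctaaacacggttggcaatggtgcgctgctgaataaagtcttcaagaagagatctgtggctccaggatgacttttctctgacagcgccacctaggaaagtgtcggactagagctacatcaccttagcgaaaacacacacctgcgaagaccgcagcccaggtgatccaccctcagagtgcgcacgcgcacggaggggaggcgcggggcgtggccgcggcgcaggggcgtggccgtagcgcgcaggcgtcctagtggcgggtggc

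DZ had small effects on the PRC2 genes. In limma at an FDR of 0.01 over all genes, 1 of the 9 rose (Eed) and 5 fell (Ezh1, Ezh2, Jarid2, Rbbp4, and Rbbp7), beside 22.6% of all genes higher and 23.4% lower, 45.9% in all. The median log2 fold change of the 9 was -0.16, compared with -0.0057 over all genes. All 6 changes were smaller than 0.5 on the log2 scale, and the largest was that of Jarid2 (-0.37). The calls of Eed and Rbbp4 were lost without CTL replicate 2 or without DZ replicate 2, which left 4 calls, and that of Eed also without CTL replicate 3 or DZ replicate 3. The libraries of DZ and CTL did not overlap for 6 of the 9, against 65.4% of all genes.

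The changes under adenine and SAM were larger for several of the genes, above all Ezh2, Mtf2, and Phf19. Under adenine, 5 of the 9 rose (Ezh2, Suz12, Rbbp7, Mtf2, and Phf19) and Ezh1 fell, with a median log2 fold change of 0.24 (-0.003 over all genes). The background in this comparison was high, as 30.6% of all genes rose and 31% fell, 61.6% in all. Under SAM, 6 rose (the same 5 and Rbbp4) and 2 fell (Ezh1 and Jarid2), with a median of 0.28 (-0.015 over all genes). Of all genes, 33.7% rose and 35.7% fell under SAM, 69.3% in all. With total-count scaling, the share of higher genes among those called under SAM was 61.2% in place of 48.5%, the median of all genes moved to 0.11, and 7 members rose, Eed being added. All 8 calls under SAM were kept without SAM replicate 3. The libraries did not overlap with CTL for 8 members under adenine and for all 9 under SAM, against 74.7% and 77.6% of all genes. The 3 comparisons share the CTL libraries and are therefore not independent of each other.

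**Figure D2:**
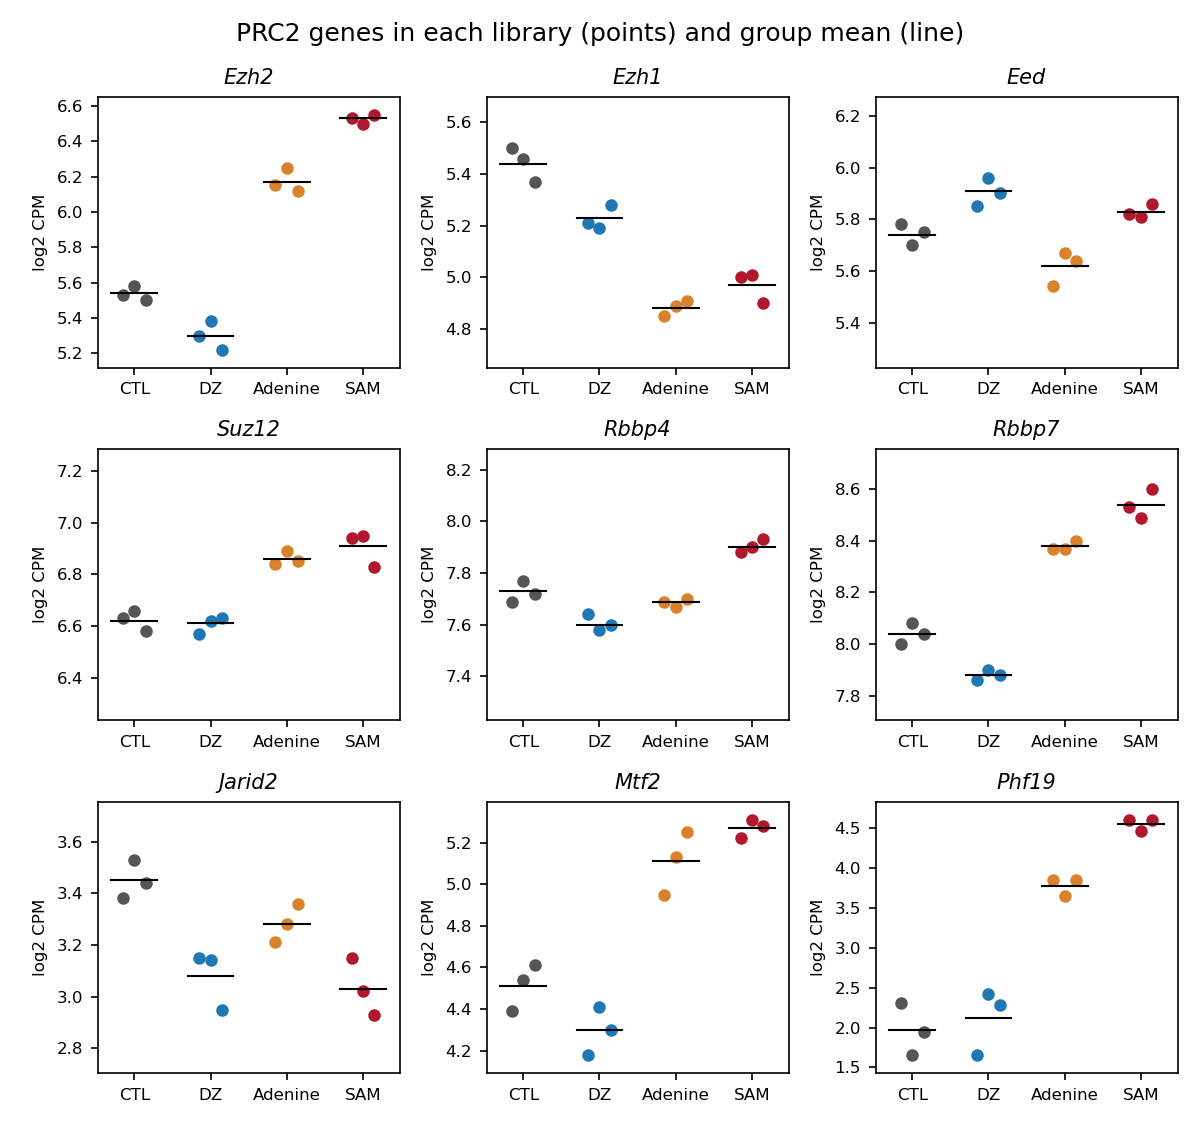
Deposited log2 CPM of the 9 PRC2 genes in each library. Points are the 3 libraries of a group in the order of their labels and lines are group means. Every panel has its own axis, spanning at least 1 log2 unit. For Ezh2, Mtf2, and Phf19 the adenine and SAM libraries lie above all CTL and DZ libraries, and for Ezh1 they lie below them.

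Ezh2 (ENSMUSG00000029687, GRCm39 chromosome 6, 47507073 to 47572331, minus strand) encodes the main catalytic subunit of dividing cells. Its log2 CPM was 5.53, 5.58, and 5.50 in CTL, 5.30, 5.38, and 5.22 in DZ, 6.15, 6.25, and 6.12 in adenine, and 6.53, 6.50, and 6.55 in SAM. The 4 groups did not overlap, with DZ lowest and SAM highest. Ezh2 fell by 0.24 on the log2 scale under DZ (SE 0.044, limma adjusted p = 3.21e-04). It rose by 0.64 under adenine (SE 0.044, limma adjusted p = 3.45e-09) and by 0.99 under SAM (SE 0.044, limma adjusted p = 1.08e-11), which is a 1.99-fold level. In the DZ libraries the level was 0.849 times that of CTL.

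Ezh1 (ENSMUSG00000006920, chromosome 11, 101081934 to 101117315, minus strand) encodes the alternative catalytic subunit, known from non-dividing cells. Its values were 5.50, 5.46, and 5.37 in CTL, 5.21, 5.19, and 5.28 in DZ, 4.85, 4.89, and 4.91 in adenine, and 5.0, 5.01, and 4.90 in SAM. All 9 treated libraries lay below the lowest CTL library. Ezh1 fell by 0.22 under DZ (SE 0.047, limma adjusted p = 0.00112), by 0.56 under adenine (SE 0.047, limma adjusted p = 3.67e-08), and by 0.47 under SAM (SE 0.047, limma adjusted p = 2.04e-07). Exons of Ezh1 share 814 bases, 8.8% of its exon length, with Cntnap1 on the other strand. The library kit keeps strand, but the strand setting of the counting is not given in the sources used here, and reads from such shared bases could fall to either gene. Cntnap1 averaged 4.92 CPM beside 35.5 CPM of Ezh1 and fell under DZ (-0.69) but did not pass the test under adenine or SAM.

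Within each library, log2 CPM of Ezh2 exceeded that of Ezh1 by 0.032, 0.11, and 0.13 in CTL (0.091 ± 0.051, SD, n = 3). The difference was 1.30, 1.35, and 1.22 in adenine, and 1.52, 1.49, and 1.65 in SAM. It did not overlap with CTL in either, and its mean was larger by 1.20 and 1.46, or 2.29-fold and 2.76-fold on the linear scale (two-sided exact permutation p = 0.1 in both, the smallest that 3 libraries against 3 allow). In DZ the difference was 0.087, 0.19, and -0.058, and its mean differed from CTL by -0.018 (exact permutation p = 0.8). The sign of this last value turned without DZ replicate 3 (0.047). DZ thus lowered both catalytic subunit genes, by 0.24 and 0.22 on the log2 scale, whereas adenine and SAM moved them in opposite directions. Such a difference within a library does not depend on the factor by which the library is scaled.

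RBBP4 and RBBP7 are close relatives that PRC2 shares with other chromatin complexes. Rbbp7 (ENSMUSG00000031353, chromosome X, 161543356 to 161562099, plus strand) was at 8.0, 8.08, and 8.04 in CTL, 7.86, 7.90, and 7.88 in DZ, 8.37, 8.37, and 8.40 in adenine, and 8.53, 8.49, and 8.60 in SAM. The order of the 4 groups was that of Ezh2, again without overlap. Rbbp7 fell by 0.16 under DZ (limma adjusted p = 3.63e-04) and rose by 0.34 under adenine (8.61e-08) and 0.49 under SAM (6.55e-10), each with an SE of 0.031.

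Rbbp4 (ENSMUSG00000057236, chromosome 4, 129184867 to 129229170, minus strand) moved less, with 7.69, 7.77, and 7.72 in CTL, 7.64, 7.58, and 7.60 in DZ, 7.69, 7.67, and 7.70 in adenine, and 7.88, 7.90, and 7.93 in SAM. It fell by 0.12 under DZ (SE 0.028, limma adjusted p = 0.00179) and rose by 0.18 under SAM (SE 0.028, limma adjusted p = 3.89e-05). Under adenine its change of -0.037 did not pass the test (95% interval -0.10 to 0.024) and was positive with quantile normalization (0.02) and with total-count scaling (0.025). Exons of Rbbp4 share 25.1% of their length with Sync on the other strand, which averaged 14.5 CPM beside 213 CPM of Rbbp4 and rose under adenine by 0.55. The difference of Rbbp7 and Rbbp4 within a library was 0.31, 0.31, and 0.32 in CTL, 0.68, 0.70, and 0.70 in adenine, and 0.65, 0.59, and 0.67 in SAM. The mean was larger than in CTL by 0.38 and 0.32 (exact permutation p = 0.1 in both, again the smallest possible). In DZ it differed from CTL by -0.04 (exact permutation p = 0.3).

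**Figure D3:**
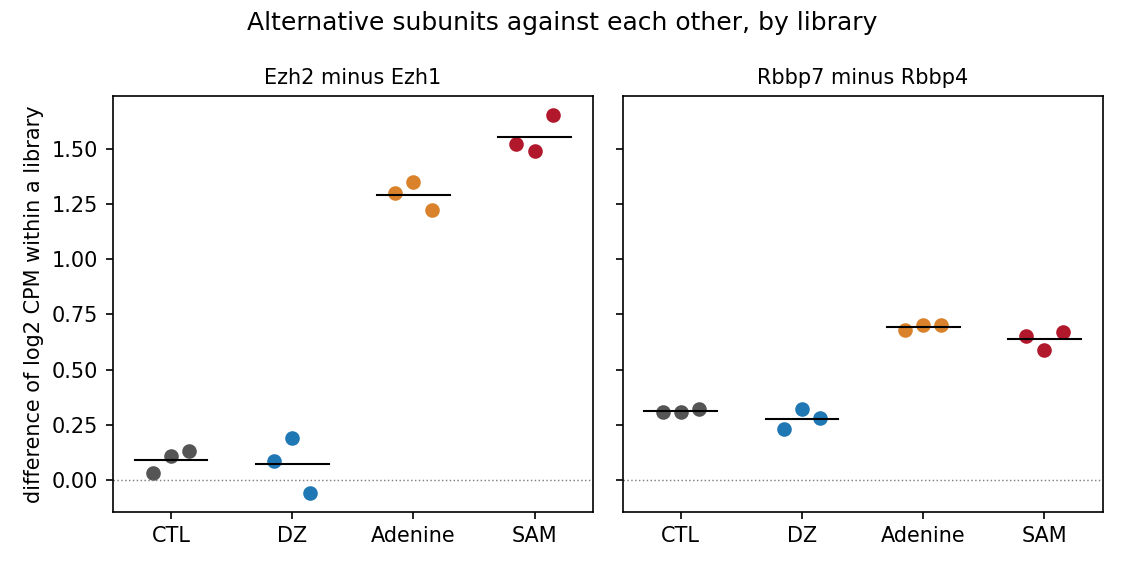
Difference of log2 CPM between alternative subunits within each library, Ezh2 minus Ezh1 (left) and Rbbp7 minus Rbbp4 (right). Points are the 3 libraries of a group and lines are group means. The Ezh2 to Ezh1 difference is near 0 in CTL and DZ and above 1 in all adenine and SAM libraries.

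Suz12 and Eed encode the core subunits without which EZH2 is inactive. Suz12 (ENSMUSG00000017548, chromosome 11, 79883891 to 79925421, plus strand) was at 6.63, 6.66, and 6.58 in CTL, 6.57, 6.62, and 6.63 in DZ, 6.84, 6.89, and 6.85 in adenine, and 6.94, 6.95, and 6.83 in SAM. The adenine and SAM libraries overlapped with each other and lay above all others. Suz12 rose by 0.24 under adenine (SE 0.036, limma adjusted p = 2.81e-05) and by 0.28 under SAM (SE 0.036, limma adjusted p = 3.35e-06), with 0.32 in the absence of SAM replicate 3. Under DZ its change of -0.017 did not pass the test, with a 95% interval of -0.094 to 0.061.

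Eed (ENSMUSG00000030619, chromosome 7, 89603862 to 89630217, minus strand) was at 5.78, 5.70, and 5.75 in CTL, 5.85, 5.96, and 5.90 in DZ, 5.54, 5.67, and 5.64 in adenine, and 5.82, 5.81, and 5.86 in SAM. Its order was unlike that of the other core genes, with adenine lowest and the DZ mean highest, although DZ and SAM overlapped. Eed was higher by 0.16 under DZ (SE 0.042, limma adjusted p = 0.00399), a call lost with quantile normalization (0.14). Its values under adenine (-0.12, limma adjusted p = 0.0171) and SAM (0.088, limma adjusted p = 0.0698) did not pass the test. Both depended on the scaling, as the adenine value passed with median centring (-0.17) and quantile normalization (-0.14) and the SAM value with total-count scaling (0.21).

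The Polycomb-like subunits read DNA and methylated histones and help to place the complex. Phf19 (ENSMUSG00000026873, chromosome 2, 34783764 to 34805063, minus strand) changed most among the 9 genes. Its log2 CPM was 2.31, 1.66, and 1.94 in CTL, 1.66, 2.42, and 2.28 in DZ, 3.85, 3.64, and 3.84 in adenine, and 4.60, 4.46, and 4.60 in SAM, with 149 to 217 reads in the CTL libraries and 1213 to 1443 in SAM. CTL and DZ overlapped, and adenine and SAM stood well above both. Phf19 rose by 1.80 under adenine (SE 0.17, limma adjusted p = 1.73e-07, 3.49-fold) and by 2.58 under SAM (SE 0.17, limma adjusted p = 1.67e-09, 6-fold). The DZ value of 0.15 did not pass the test (95% interval -0.22 to 0.52), and it was -0.0038 without CTL replicate 2.

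Mtf2 (ENSMUSG00000029267, chromosome 5, 108213540 to 108256877, plus strand) was at 4.39, 4.54, and 4.61 in CTL, 4.18, 4.41, and 4.30 in DZ, 4.95, 5.13, and 5.25 in adenine, and 5.22, 5.31, and 5.28 in SAM. The DZ and CTL libraries overlapped, and all adenine and SAM libraries were higher. It rose by 0.60 under adenine (SE 0.077, limma adjusted p = 4.61e-06) and by 0.76 under SAM (SE 0.077, limma adjusted p = 2.38e-07). Its DZ value of -0.21 missed the threshold (limma adjusted p = 0.0276).

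The third Polycomb-like gene, Phf1, did not follow them. It stood at 5.67, 5.70, and 5.67 in CTL, 5.24, 5.20, and 5.30 in DZ, 5.39, 5.18, and 5.30 in adenine, and 5.57, 5.66, and 5.73 in SAM. Phf1 fell by 0.43 under DZ (limma adjusted p = 5.44e-06) and by 0.39 under adenine (limma adjusted p = 7.81e-06), whereas its SAM value was -0.025 (95% interval -0.14 to 0.088). Per length, Phf1 was the highest of the Polycomb-like genes in CTL, at 19.3 ± 0.24 CPM per kilobase beside 5.63 of Mtf2 and 1.06 of Phf19. Under SAM the corresponding values were 19 ± 1, 9.52 ± 0.29, and 6.28 ± 0.35.

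Jarid2 (ENSMUSG00000038518, chromosome 13, 44882950 to 45075119, plus strand), whose product recruits the complex and stimulates its activity, was at 3.38, 3.53, and 3.44 in CTL, 3.15, 3.14, and 2.95 in DZ, 3.21, 3.28, and 3.36 in adenine, and 3.15, 3.02, and 2.93 in SAM. DZ and SAM overlapped with each other and lay below adenine and CTL. Jarid2 fell by 0.37 under DZ (SE 0.083, limma adjusted p = 0.00144) and by 0.42 under SAM (SE 0.083, limma adjusted p = 3.09e-04), with -0.36 in the absence of SAM replicate 3. The adenine value of -0.17 did not pass the test. Exons of Jarid2 share 12% of their length with Dtnbp1 on the other strand, which averaged 36.3 CPM beside 9.34 CPM of Jarid2 and rose under DZ by 0.36. Exons of Eed share 9.21% of their length with the antisense lncRNA E230029C05Rik and those of Phf19 share 3.6% with Gm13448, neither of which is listed in the table. Further overlaps exist for Mtf2 with Tmed5 (5.75% of exon length), Rbbp7 with Txlng (2.24%), and Ezh2 with Cul1 (1.29%). Tmed5 averaged 76 CPM beside 29 CPM of Mtf2, Txlng 24 beside 301 of Rbbp7, and Cul1 147 beside 62.5 of Ezh2. Of the last 3 partners, Txlng under adenine (-0.22), Cul1 under SAM (0.15), and Tmed5 under DZ (0.37) and SAM (-0.27) passed the test.

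**Figure D4:**
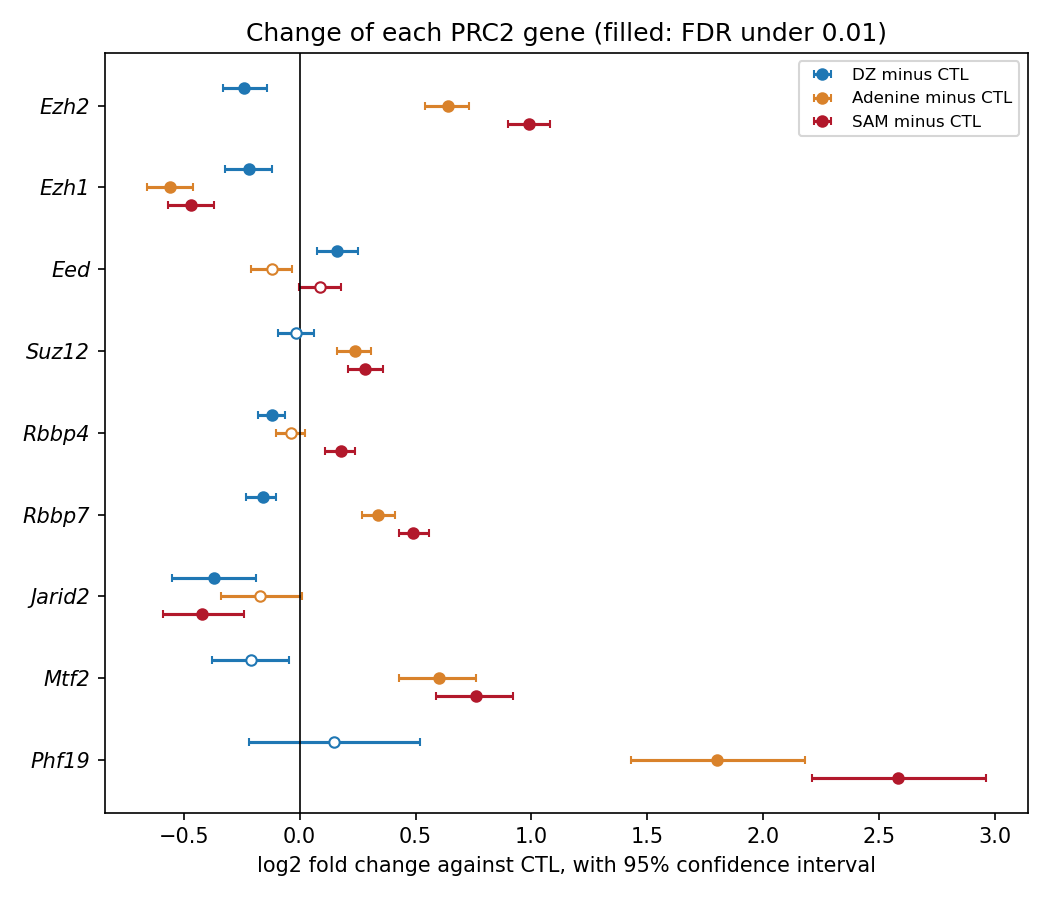
Log2 fold change of each PRC2 gene against CTL under DZ, adenine, and SAM, with 95% confidence intervals from limma. Filled points pass an FDR of 0.01. Phf19 has the largest rises, 1.80 and 2.58, and Ezh1 lies below 0 under all 3 treatments.

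Adenine and SAM were given at the same concentration for the same time and were compared directly, although equal concentrations of different compounds need not be equal doses. SAM libraries had more RNA of 5 of the 9 genes, Ezh2, Eed, Rbbp4, Rbbp7, and Phf19, beside 20.8% of all genes higher and 22% lower (42.7% in all). Phf19 was higher in SAM by 0.78 (limma adjusted p = 0.00147), Ezh2 by 0.35 (8.34e-06), Eed and Rbbp4 both by 0.21 (6.35e-04 and 1.65e-05), and Rbbp7 by 0.16 (5.94e-04). The remaining differences did not pass, with 95% intervals of -0.012 to 0.19 for Ezh1, -0.031 to 0.12 for Suz12, -0.0037 to 0.33 for Mtf2, and -0.43 to -0.072 for Jarid2. All 5 calls were kept without SAM replicate 3.

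DZ was given at another concentration, so that direct comparisons with it are not matched even in concentration. The model called 7 of the 9 genes between adenine and DZ, beside 64.3% of all genes, and 7 between SAM and DZ, beside 69%. Ezh2 was higher by 0.87 in adenine and by 1.23 in SAM than in DZ, and Phf19 by 1.65 and 2.43. Ezh1 was lower by 0.34 in adenine than in DZ (limma adjusted p = 9.18e-06) and by 0.26 in SAM (limma adjusted p = 1.57e-04).

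Of 6 other PRC2 subunits and inhibitors, 5 were in the table, Ezhip not being listed. In this short list 2 fell under DZ and 2 under adenine, and under SAM 1 rose and 2 fell. These calls were 40%, 40%, and 60% of the list, beside 45.9%, 61.6%, and 69.3% of all genes. The median log2 fold change was -0.17 under DZ, and near 0 under adenine (-0.006) and SAM (-0.025), where total-count scaling turned its sign (0.056 and 0.097). Epop, which links the complex to elongin, was at 3.39, 3.32, and 3.45 in CTL, 2.74, 2.82, and 2.37 in DZ, 3.74, 3.63, and 3.49 in adenine, and 3.86, 3.98, and 4.09 in SAM. It fell by 0.74 under DZ (SE 0.11, limma adjusted p = 2.82e-05) and rose by 0.59 under SAM (SE 0.11, limma adjusted p = 1.20e-04), with 0.24 under adenine not passing the test. Aebp2 fell under SAM (-0.17, limma adjusted p = 2.47e-05), a call lost with total-count scaling (-0.044), and passed in no other comparison with CTL. Lcorl, whose locus encodes a PALI-type subunit, fell by 0.56 under adenine and by 1.02 under SAM (limma adjusted p = 8.65e-07 and 5.02e-10). Its relative Lcor passed in no comparison with CTL, and SAM replicate 3 was low for it (3.57, beside 4.16 and 4.18).

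The demethylases that remove the mark of PRC2 moved apart under adenine and SAM. Kdm6a (UTX) was at 5.98, 6.02, and 5.97 in CTL, 5.96, 6.04, and 5.86 in DZ, 6.21, 6.24, and 6.23 in adenine, and 6.36, 6.42, and 6.21 in SAM, and rose by 0.24 under adenine and 0.34 under SAM, while its DZ value of -0.036 did not pass the test. Kdm6b (JMJD3) was at 7.18, 7.18, and 7.06 in CTL, 6.70, 6.62, and 6.63 in DZ, 6.79, 6.81, and 6.76 in adenine, and 6.28, 6.30, and 6.15 in SAM. It fell by 0.49 under DZ, 0.35 under adenine, and 0.90 under SAM, and no treated library reached the CTL range.

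PRC1, the sister complex that ubiquitinates histone H2A and in some of its forms reads the H3K27 mark, had all 23 listed genes in the table. Of these, 4 rose and 11 fell under DZ (median log2 fold change -0.14), 7 rose and 7 fell under adenine (median 0.076), and 10 rose and 7 fell under SAM (median 0.14). The share called was 65.2% under DZ, 60.9% under adenine, and 73.9% under SAM, beside 45.9%, 61.6%, and 69.3% of all genes. The balance under adenine followed the scaling, with 5 up and 8 down after median centring and 11 up and 5 down with total counts. That under SAM did so too, with 9 up and 8 down after median centring and 13 up and 5 down with total counts. Quantile normalization gave 8 up and 8 down under SAM. For DZ, median centring and quantile normalization each gave 2 up and 11 down. Pcgf1 fell under all treatments, by 0.40, 0.67, and 0.46 in the order DZ, adenine, and SAM. Cbx6 fell by 0.30 under DZ and rose by 0.45 and 0.61, the order seen for Ezh2, whereas L3mbtl2 rose in each (0.23, 0.33, and 0.59), its DZ call being lost with median centring and quantile normalization.

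Hox and Cdkn2 genes are classical targets of PRC2 repression. Only 13 of 41 listed names were in the table. As the authors kept only genes that reached 1 CPM in every library, a target silent in CTL would be missing here. The release of such a gene by a treatment could therefore not be seen, and the genes below were already expressed in CTL. Under DZ, 3 rose and 7 fell, with a median log2 fold change of -0.37. Under adenine 7 rose and 1 fell (median 0.18), and under SAM 6 rose and 1 fell (median 0.22). The share called was 76.9% under DZ, 61.5% under adenine, and 53.8% under SAM, beside 45.9%, 61.6%, and 69.3% of all genes. Median centring gave 6 up and 2 down under both adenine and SAM. Total-count scaling gave 7 up and 1 down under adenine, and 7 up and 0 down under SAM. Hoxa3 fell by 0.66 under DZ and Hoxa10 by 0.26, and they rose by 0.39 and 0.65 under adenine. Under SAM, Hoxa10 rose by 0.54, whereas the Hoxa3 value of -0.06 did not pass the test. Cdkn2a and Cdkn2b, inhibitors of cell cycle kinases, rose under each treatment, from 0.24 and 0.20 under DZ to 0.71 and 0.85 under SAM. Binding of PRC2 and H3K27 methylation at these genes were not measured.

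Under adenine and SAM, genes of cell division rose as well. Of 25 proliferation genes, all in the table, 24 rose and 1 fell under both (Mcm2, -0.11 and -0.13, not called with quantile normalization or total-count scaling), with median log2 fold changes of 1.47 and 1.83, and their summed level was 1346 to 1390 CPM in CTL, 3081 to 3182 CPM in adenine, and 3816 to 3871 CPM in SAM. Cdc6, a licensing factor of DNA replication, rose by 2.06 and 2.80, and the mitotic kinase gene Aurkb by 1.89 and 2.71. Under DZ, 15 of the 25 rose and 1 fell (median 0.24, summed level 1447 to 1613 CPM), while Ezh2 and Rbbp7 fell. Of the 15 listed E2F and pocket protein genes, 14 were in the table. Of these, 5 rose and 2 fell under DZ (median 0.08), 9 rose and 1 fell under adenine (median 0.41), and 9 rose under SAM (median 0.53). In the order DZ, adenine, and SAM, the share called was 50%, 71.4%, and 64.3% of this list. It was 64%, 100%, and 100% of the proliferation list, beside 45.9%, 61.6%, and 69.3% of all genes. The largest changes of the E2F list under adenine and SAM were those of E2f7 (2.60 and 2.85) and E2f8 (1.79 and 2.14), which rose by 0.49 and 0.30 under DZ. In confluent cultures the authors saw no effect of SAM on cell cycle or death. In sparse cultures with 1 mM SAM they saw stunted growth and then a decline. The part of cell division in the changes of the PRC2 genes was not tested.

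Markers of other cells were few. Cd68 rose from 3.03 to 4 CPM in CTL to 10.8 to 12.3 CPM in adenine and 15.6 to 17.7 CPM in SAM, with Ptprc, Csf1r, and the other 5 leukocyte markers not listed in the table. Sox2 was at 32.7 to 35.2 CPM in adenine and 27.6 to 28.2 CPM in SAM, with Pou5f1 and Nanog not listed. The 8 fibroblast markers summed to 27665 to 28259 CPM in DZ, 24224 to 26540 CPM in adenine, and 15862 to 17240 CPM in SAM. Under SAM, 7 of the 8 rose (median log2 fold change 0.41), Pdgfra by 2.55 among them, and Fn1 (fibronectin) fell by 1.58. Of all genes, 33.7% rose under SAM and 35.7% fell. The part of these marker genes in the results above was not tested.

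**Figure D5:**
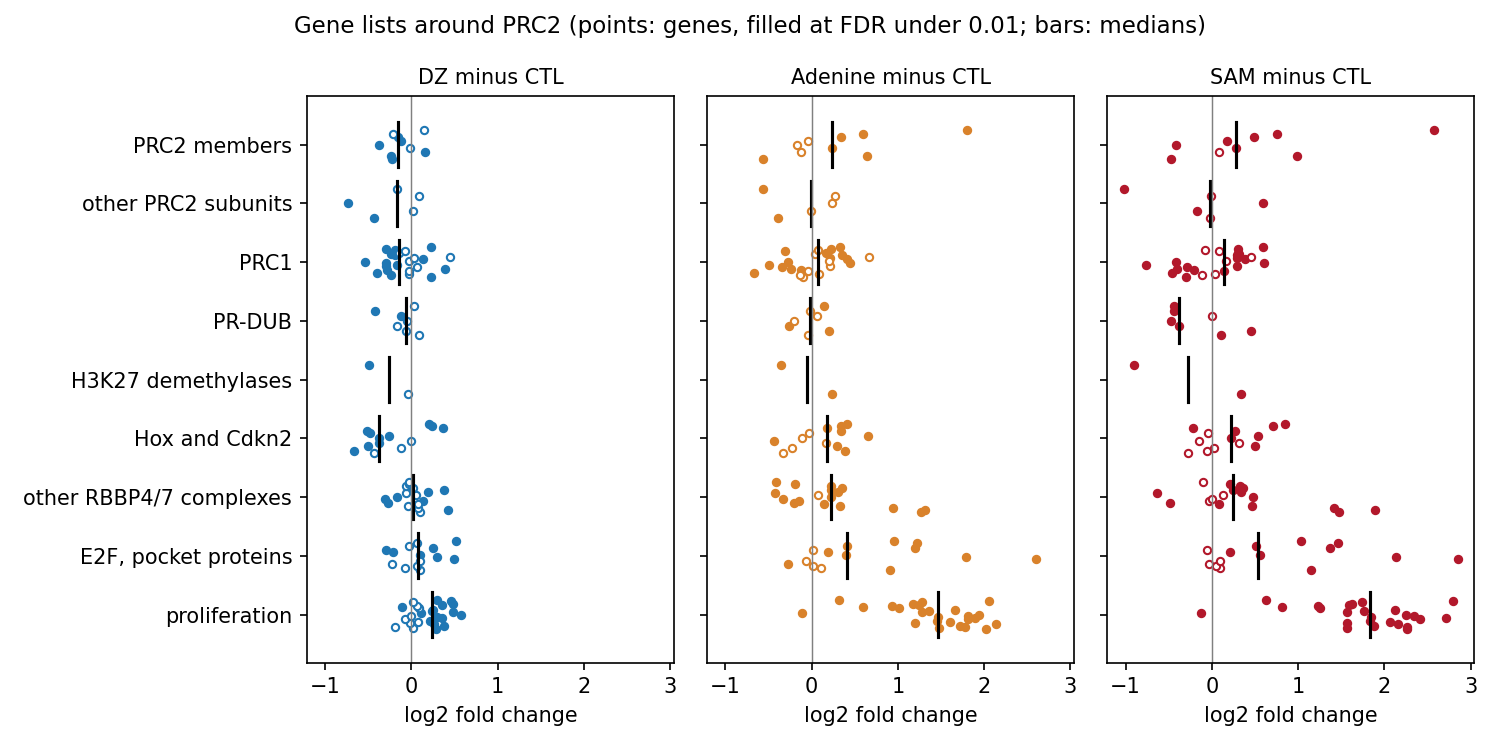
Log2 fold change against CTL of the listed genes found in the table, by list, under DZ, adenine, and SAM. Cell type markers are not drawn. Points are genes, filled where they pass an FDR of 0.01, and bars are list medians. The proliferation list is shifted by a median of 1.47 under adenine and 1.83 under SAM, and the 9 PRC2 genes by 0.24 and 0.28.

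Over the 12 libraries, the genes whose log2 CPM was most like that of Ezh2 were Nup133, a nuclear pore gene (Pearson r = 0.996), Mrgprf (0.996), Basp1 (0.995), and Elk3, an ETS-family factor (0.994). They changed by -0.18, -0.27, -0.18, and -0.21 under DZ and by 0.74, 1.18, 0.72, and 0.76 under SAM. The genes most like Ezh1 were Slc25a37, a mitochondrial iron importer (0.989), Coasy, an enzyme of coenzyme A synthesis (0.981), Taf1d (0.978), and the pseudogene Gm9104 (0.977). Coasy lies on chromosome 11 as Ezh1 does, at 100973391 to 100977446. These values describe 4 groups of 3 libraries, and the libraries of a group are not independent points.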

How the data were processed

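The authors trimmed paired-end reads of polyadenylated RNA with Trimmomatic, aligned them to GRCm39 with HISAT2, quantified transcripts with StringTie under GENCODE vM27, and normalized with edgeR. Values deposited by the authors are log2 CPM on normalized library sizes, for the 12591 genes that reached 1 CPM in every library. Its 12 columns were used as they stand, 3 replicates in each of 4 groups. Whole reads, which give the depth, were recovered by taking off a prior count of 2 (100% of values within 0.05 of a whole read).

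Genes were tested with limma 3.58.1 in R 4.3.3 (lmFit and eBayes with a variance trend), all 12 libraries in 1 model, with Benjamini-Hochberg adjustment over the whole table and an FDR of 0.01. Differences between 2 genes within a library were compared by exact permutation of libraries. Symbols, positions, and lengths come from GENCODE vM39 (12575 IDs matched), and Python 3.11.15 was used for tables and plots. Scripts were tested on simulated data.

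The members and the gene lists were chosen with earlier results of these data known. Named in the text are the 9 members, the other PRC2 subunits and the demethylases in the table, up to 4 called genes of each other list with the largest change against CTL, and the 4 genes most like Ezh1 and Ezh2. A gene that this rule named is left out of the text. Genes that overlap a member, with Mcm2 and those named as not listed, were added after their values were seen. Alternatives changed the variance model, filters, scaling, pseudocount, threshold, model, and libraries.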

Additional observations from a re-analysis of the deposited data

How the results depend on the processing

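Of 1026 values of single members under the alternatives, 974 kept direction and side of the threshold, 30 lost and 13 gained a call, and 9 changed sign, none of them called. With a required log2 fold change of 0.5 the members called were 0 under DZ, 4 under adenine, 3 under SAM, 1 between SAM and adenine, 4 between adenine and DZ, and 4 between SAM and DZ, by construction of the limit. Leaving out each library gave 4 to 6 calls under DZ, 6 under adenine, 8 under SAM, 5 between SAM and adenine, 7 to 8 between adenine and DZ, and 7 between SAM and DZ. It gave Ezh2 minus Ezh1 differences of -0.076 to 0.047 under DZ (0.047 without DZ replicate 3), 1.17 to 1.24 under adenine, and 1.42 to 1.50 under SAM, and Rbbp7 minus Rbbp4 differences of -0.061 to -0.016, 0.37 to 0.38, and 0.30 to 0.34. The changes of sign, all small, were Suz12 under DZ with total-count scaling (0.0084) and among the fits that each leave out a library (-0.038 to 0.0038, positive without CTL replicate 2 and without DZ replicate 1), Phf19 under DZ without CTL replicate 2 (-0.0038), Rbbp4 under adenine with quantile normalization (0.02) and total-count scaling (0.025), and, between SAM and DZ, Eed with total-count scaling (0.021) and Jarid2 with total-count scaling (0.051) and without SAM replicate 3 (-0.11 to 0.0079 over the libraries left out). Their cause was not tested. The replicate numbers did not pair the dishes (same-numbered libraries had r across genes of -0.142 to 0.181, and 1 of 12 libraries correlated best with its own number), and with a replicate block 7 members were called under DZ, Mtf2 being gained, with 6, 8, 5, 7, and 7 in the other comparisons. Lowest in reads was Phf19 in CTL and DZ, where its SE of 0.17 leaves small changes undetectable at this depth.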

Other observations

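RBBP4 and RBBP7 also belong to the chromatin assembly factor CAF-1, the histone acetyltransferase HAT1, and the NuRD and SIN3 deacetylase complexes. Of 17 other genes of these complexes, all in the table, 4 rose and 3 fell under DZ (median log2 fold change 0.024), 10 rose and 6 fell under adenine (median 0.22), and 11 rose and 2 fell under SAM (median 0.25), by limma at an FDR of 0.01. The share called was 41.2% under DZ, 94.1% under adenine, and 76.5% under SAM, beside 45.9%, 61.6%, and 69.3% of all genes. Chaf1b, a CAF-1 subunit, rose by 0.43, 1.32, and 1.89 under DZ, adenine, and SAM. Chaf1a rose by 1.27 and 1.47 under adenine and SAM and Hat1 by 0.94 and 1.42, and their DZ values of 0.10 and 0.082 did not pass. Mbd2, a methyl-DNA binding subunit of NuRD, fell by 0.42 under adenine and by 0.64 under SAM.

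PR-DUB, which removes the ubiquitin that PRC1 places on histone H2A, had 7 of 8 listed genes in the table. Under DZ 2 fell, under adenine 2 rose and 1 fell (1 and 2 after median centring), and under SAM 2 rose and 4 fell, with median log2 fold changes of -0.068, -0.019 (0.043 with total-count scaling), and -0.38. These calls were 28.6%, 42.9%, and 85.7% of the list, beside 45.9%, 61.6%, and 69.3% of all genes. Asxl1 rose by 0.20 under adenine and 0.45 under SAM, while Foxk1 fell by 0.47, Mbd5 by 0.44, and Mbd6 by 0.44 under SAM. Mbd6 moved the other way under adenine, where it rose by 0.14, a call lost after median centring (0.085).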
